A study of Mus musculus with 2 samples.

Results

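Th17-polarized and Th1-polarized mouse lymphocytes were set against each other through Th0 cells, the population both had been hybridised with. For each gene, the log2 ratio on the array of Th1 and Th0 RNA was subtracted from the log2 ratio on the array of Th17 and Th0 RNA. All 17501 of 17501 named genes on the arrays entered, each as the mean of its probes that carry exactly 1 gene symbol. Per the labels, the lymphocytes of all 3 populations came from a TRP-1 mouse. As background, such mice carry T cells that recognise a melanocyte protein also made by melanomas. Th1 and Th17 RNA were each hybridised with Th0 RNA on 1 array, with the polarized RNA labelled with Cy5 and the Th0 RNA with Cy3 on both. Hence the difference between the 2 arrays has no replicate, and the number of arrays limits its precision. Age and sex of the mice, the cytokines and antibodies of each culture, its length and any sorting of cells are not stated in the labels. The subtraction assumes that 1 and the same Th0 RNA served for both, on which the labels are silent. The labels name bulk RNA of a cultured population, in which fewer cells of a type and less RNA per cell cannot be told apart.

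No label states the numerator of the deposited ratio, so differences are given by side. As the arrays are titled, a negative difference would mean less RNA in Th17 than in Th1 cells. With both columns turned, it would mean more. Il17a, the gene that names the Th17 lineage, lay on the negative side. On the Th17 and Th0 array, 10 of 19 measured Th17 programme genes lay at least 2-fold negative and 1 positive. Over all genes those shares were 5.52% and 2.9%. On the Th1 and Th0 array, 4 of 22 measured Th1 programme genes, among them Ifng and Tbx21, lay at least 2-fold negative. Another 4 were positive, beside 6.92% and 3.27% of all genes. Sizes, counts and which genes lay together on a side are the same under both readings, provided both columns run the same way.

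As background, naive CD4 T cells that are activated in culture take different fates according to the cytokines around them. Interleukin 12 and interferon gamma lead to Th1 cells, which use the transcription factor T-bet and secrete interferon gamma. Interleukin 6 with TGF-beta leads to Th17 cells, which use STAT3 and secrete interleukins 17A, 17F, 21 and 22. Th0 cells are activated without a directing set of cytokines, and the factors of one fate restrain the others.

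In all, 1425 genes (8.14%) differed at least 2-fold, a log2 difference of 1 or more, between the arrays. The negative side held 632 (3.61%) and the positive side 793 (4.53%). The median difference over all genes was 0.04, and the middle 50% of genes lay between −0.23 and 0.29. The arrays repeat a measurement only where a gene has several probes, and over 5871 genes with 2 to 19 probes the difference had a pooled SD of 0.52. That SD covers probes and not samples. Centring each array on widely expressed control genes moves every difference up by 0.27 and the share of called genes on the negative side from 44.4% to 22.7%, with 404 negative and 1376 positive genes. No named gene past 2-fold changes side with it, but some fall within 2-fold, which is said where they are described. On the single arrays, 10.2% of genes lay at least 2-fold from 0 on the Th1 and Th0 array (6.92% negative, 3.27% positive) and 8.42% on the Th17 and Th0 array (5.52% negative, 2.9% positive).

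**Figure D1:**
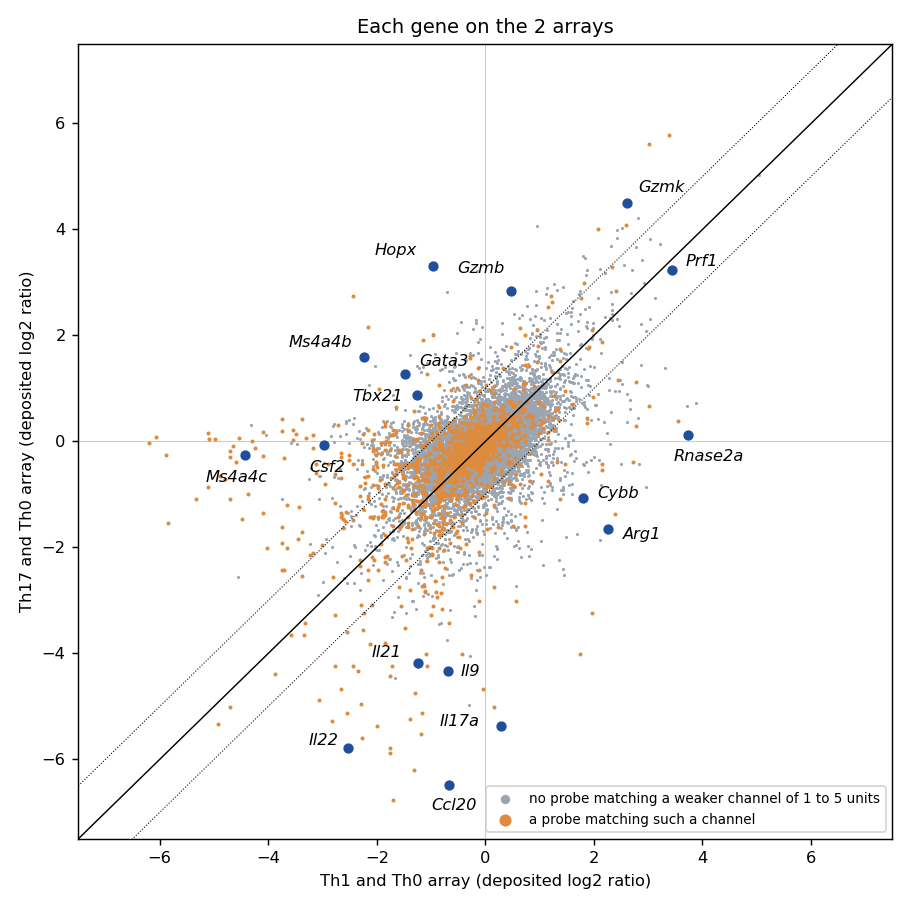
Deposited log2 ratio of each of the 17501 genes on the Th1 and Th0 array (x axis) and on the Th17 and Th0 array (y axis). The solid line marks equal values and the dotted lines a 2-fold difference. Blue points are the genes labelled on the plot. Of these labelled genes Ccl20 and Il17a lie farthest below the line, and Hopx lies farthest above it. Orange points have a probe whose value matches a weaker channel of 1 to 5 signal units, and many of them lie at the far left and the far bottom.

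The 5 genes chosen to mark the comparison split between the sides. Il17a lay at 0.29 on the Th1 and Th0 array and at −5.37 on the Th17 and Th0 array, a difference of −5.67 (50.8-fold). Ccl20, a chemokine that attracts cells bearing CCR6, lay at −0.67 and −6.48, a difference of −5.82 (56.5-fold). For both, nearly the whole difference therefore lay on the Th17 and Th0 array. Tbx21, the gene of T-bet, lay at −1.25 and 0.87, a difference of 2.12 (4.35-fold). Gata3, the master factor of Th2 cells that T cells in general also use, lay at −1.49 and 1.28, a difference of 2.77 (6.81-fold). Gzmb, the gene of the cytotoxic protease granzyme B, lay at 0.47 and 2.83, a difference of 2.36 (5.14-fold). The Th17 marker genes and Tbx21 were thus on opposite sides, and each of the 5 rests on 1 probe. Gata3 was at least 2-fold from 0 on both arrays, in opposite directions.

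Of 19 measured genes of the Th17 programme, 8 were past 2-fold with a negative difference and 1 with a positive one, beside 3.61% and 4.53% of all genes. Their median difference was −0.68, against 0.04 over all genes. The lineage cytokines led the list. Il22, whose product acts on epithelia, lay at −2.53 on the Th1 and Th0 array and at −5.79 on the other, a difference of −3.26 (9.59-fold). Il21, which sustains Th17 and follicular helper cells, lay at −1.23 and −4.17, a difference of −2.94. Il17f, the closest relative of Il17a, lay at 0.06 and −2.38, a difference of −2.44. Il22 and Il21 thus departed from 0 on both arrays toward the same sign, while Il17a and Il17f stayed within 0.3 of 0 on the Th1 and Th0 array.

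Regulators and receptors of the Th17 programme differed less than its cytokines. Ahr, a ligand-activated factor that drives Il22, lay at 0.35 and −1.73 on the 2 arrays, a difference of −2.07. The gene of the Ahr-induced enzyme Cyp1a1, which was chosen after its value was seen, lay at −0.19 and −3.30, a difference of −3.11. Irf4, a factor needed for Th17 cells among others, differed by −1.69. Il1r1, the interleukin 1 receptor, differed by −1.30, but its 2 probes were far apart (SD 1.26). Below 2-fold lay Il23r, the receptor chain for interleukin 23, at −0.86, Ccr6 at −0.68, Rora at −0.43 and Stat3 at −0.40. Maf at 0.12 and Batf at −0.0011 were near 0. Nfkbiz, which encodes the inhibitor-like protein IκBζ that Th17 cells also use, was the 1 member past 2-fold on the positive side, at 1.79.

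The promoters of Il17a, Il17f and Ccl20 are shown because these 3 were the negative-side genes of the Th17 programme that held the motif searched. In each, the 250 bases before the RefSeq gene start (GRCm38.p6) hold AGGTCA, a core motif to which nuclear receptors bind. It was searched on both strands and is written in capitals. It also stands in 15.8% of 27025 genes with such a window and in 6 of 16 measured members of the Th17 programme. By side, these were 3 of 7 negative members and 3 of 9 members within 2-fold. Il21 and Il22, which lay farther negative than Il17f, lack it. A match is a description of these letters and shows no binding. The windows are chr1:20730655-20730904 on the plus strand for Il17a, chr1:20784271-20784520 on the minus strand for Il17f and chr1:83116516-83116765 on the plus strand for Ccl20. They are written 5′ to 3′ in the direction of transcription, and the match starts 120, 58 and 174 bases before the gene start.
Il17a: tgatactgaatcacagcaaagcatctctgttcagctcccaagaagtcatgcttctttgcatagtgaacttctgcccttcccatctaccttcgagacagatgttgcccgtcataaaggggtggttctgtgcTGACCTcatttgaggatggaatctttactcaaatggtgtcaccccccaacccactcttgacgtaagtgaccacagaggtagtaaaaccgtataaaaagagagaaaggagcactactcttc
Il17f: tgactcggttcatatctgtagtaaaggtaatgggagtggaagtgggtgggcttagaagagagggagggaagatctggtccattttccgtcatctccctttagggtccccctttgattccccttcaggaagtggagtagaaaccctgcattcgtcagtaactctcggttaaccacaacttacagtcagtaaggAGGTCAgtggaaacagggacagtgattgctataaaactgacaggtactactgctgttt
Ccl20: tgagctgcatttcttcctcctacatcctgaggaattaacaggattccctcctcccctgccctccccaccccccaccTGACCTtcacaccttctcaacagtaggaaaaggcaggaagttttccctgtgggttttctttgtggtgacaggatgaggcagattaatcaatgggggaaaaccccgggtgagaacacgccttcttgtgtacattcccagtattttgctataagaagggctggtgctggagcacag

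**Figure D2:**
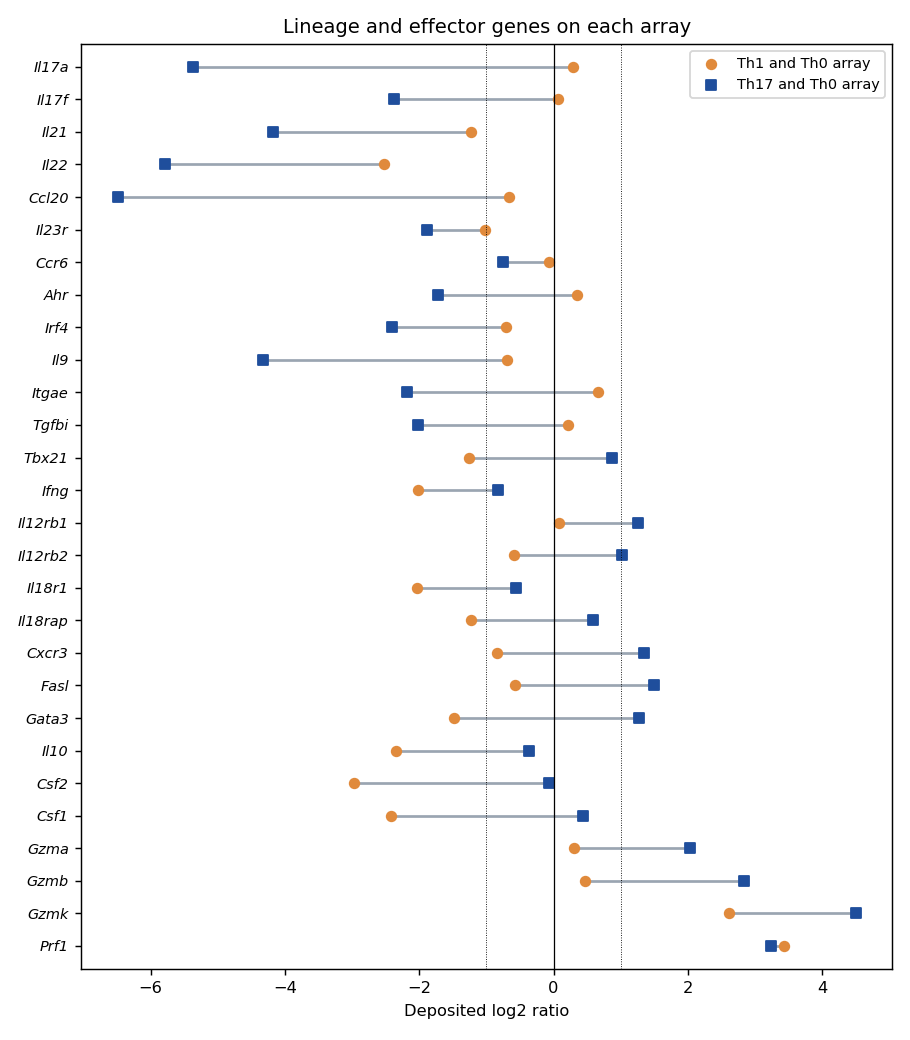
Deposited log2 ratios of 28 lineage and effector genes on the Th1 and Th0 array (circles) and the Th17 and Th0 array (squares). The grey bar is the Th17 minus Th1 difference and dotted lines mark 2-fold from 0. Squares lie left of circles from Il17a down to Tgfbi and right of them from Tbx21 on, except for Prf1, where both nearly coincide.

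The Th1 programme leaned to the positive side, with 9 of 22 measured members at least 2-fold there and 1 on the negative side. Over all genes those shares were 4.53% and 3.61%. The median difference of the list was 0.61. Cxcr3, the chemokine receptor of Th1 cells, lay at −0.84 on the Th1 and Th0 array and at 1.34 on the other, a difference of 2.19 (4.56-fold). Fasl, the death ligand, lay at −0.58 and 1.49, a difference of 2.07. Both receptors through which interleukins 12 and 18 act on Th1 cells were on this side with both of their chains. Il12rb2 and Il12rb1 differed by 1.60 and 1.18, and Il18rap and Il18r1 by 1.82 and 1.46. Nkg7, a granule protein gene, differed by 1.71.

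Ifng itself differed less than Tbx21. It lay at −2.02 on the Th1 and Th0 array and at −0.83 on the other, a difference of 1.19 (2.29-fold), with both values on the same side of 0. Havcr2, whose product Tim-3 inhibits T cells, lay at 2.69 and 3.23 and Eomes, a relative of Tbx21, at 2.29 and 2.33, so these Th1-associated genes were far from 0 on both arrays and differed by only 0.54 and 0.04. The factor genes Runx3 at −0.03 and Hlx at −0.03 and the cytokine gene Tnf at 0.04 differed little, but the probe of Hlx matched a weaker channel of at most 5 units. Ccl5, a chemokine of effector T cells, was the 1 member past 2-fold on the negative side, at −1.11, and it fell within 2-fold when arrays were centred on control genes. Lta, the gene of lymphotoxin, lay at −0.85.

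Genes of the Th2 and Th9 programme fell on both sides. Of 14 measured members 1 was at least 2-fold negative and 3 positive, beside 3.61% and 4.53% of all genes. Il9, the cytokine of Th9 cells, whose induction needs TGF-beta, lay at −0.69 on the Th1 and Th0 array and at −4.33 on the other, a difference of −3.64 (12.5-fold). The positive members were Gata3, Il5 at 1.46 and Il13 at 1.03, the last within 2-fold when arrays were centred on their medians. Il4, the cytokine that drives Th2 cells, lay at −0.71, opposite to Il5 and Il13 and within 2-fold. Ccr4, Ccr8 and Ptgdr2, receptors of Th2 cells, lay at 0.42, 0.17 and 0.16. The named Th2 genes thus did not lie together.

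Of 18 measured TGF-beta receptors, Smads and genes that respond to TGF-beta, 4 were at least 2-fold negative and 0 positive. Over all genes those shares were 3.61% and 4.53%. In the list 13 lay below 0 and 5 above. When arrays were centred on control genes 3 remained past 2-fold. The median difference was −0.26, which turned to 0.02 when arrays were centred on control genes. Itgae, the integrin chain CD103 that TGF-beta induces in T cells, lay at 0.66 and −2.19 on the 2 arrays, a difference of −2.84 (SD 0.84 over 7 probes). Tgfbi, a secreted matrix protein gene, differed by −2.24. Ldlrad4 and Pmepa1, feedback inhibitors of the pathway, differed by −1.57 and −1.17, and Pmepa1 fell within 2-fold when arrays were centred on control genes. The signalling genes stayed near 0, with Smad2 at −0.10, Smad3 at 0.05, Smad4 at −0.06, Tgfbr1 at 0.22 and Tgfbr2 at 0.26.

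Of 16 measured genes of regulatory T cells, 2 were at least 2-fold on each side, beside 3.61% negative and 4.53% positive of all genes. The list median was −0.04, which turned positive when arrays were centred on control genes. Foxp3, the master factor of regulatory T cells, which TGF-beta can also induce, lay at 0.54 and 0.44, a difference of −0.10. Nt5e and Entpd1 encode CD73 and CD39, the ectoenzymes that together turn ATP into adenosine, and they lay apart. Nt5e lay at 0.09 and −2.36, a difference of −2.46 (5.48-fold), while Entpd1 lay at 0.21 and 1.47, a difference of 1.27. Ctla4, an inhibitory receptor, differed by −1.45 and Il10, an inhibitory cytokine, by 1.99. Il2ra at 0.20 and Ikzf2 at 0.61 were within 2-fold, and each had a probe that matched a weaker channel of at most 5 units.

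Among genes of cytotoxic killing most differences were positive or small, with a median of 0.53. Of 19 measured members 7 were at least 2-fold positive and 0 negative, beside 4.53% and 3.61% of all genes. The 7 were all granzyme genes. Beside Gzmb, Gzmk lay at 2.61 on the Th1 and Th0 array and at 4.50 on the other, a difference of 1.89, and Gzma lay at 0.31 and 2.03, a difference of 1.72. Gzmd, Gzmg, Gzmc and Gzme differed by 1.71, 1.52, 1.38 and 1.37. Several of these granzyme genes are close copies of each other, so a probe may have bound RNA of more than 1 of them. Prf1, the gene of the pore-forming protein perforin that lets granzymes into a target, was far from 0 on both arrays, at 3.43 and 3.24, and differed by −0.19. Genes of the granule release machinery also differed little, with Rab27a at −0.16, Unc13d at −0.08 and Stxbp2 at 0.07.

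Of 13 clade B serpins, protease inhibitors some of which protect killer cells from their own granzymes, 3 were at least 2-fold positive and 0 negative. Over all genes those shares were 4.53% and 3.61%. Serpinb9b, a relative of the granzyme B inhibitor Serpinb9, lay at 3.01 and 5.61, a difference of 2.60, and Serpinb9 itself at 2.42 and 3.83, a difference of 1.41. Serpinb6b lay at 2.59 and 4.08. The values of Serpinb9b and Serpinb6b matched a weak channel of at most 5 units and their sizes are therefore uncertain. Leaving out probes with such a match left 10 members, of which 1 was at least 2-fold positive.

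Interferon-stimulated genes leaned to the positive side. Of 34 measured members 9 were at least 2-fold positive and 0 negative, beside 4.53% and 3.61% of all genes. The median difference of the list was 0.46. Isg20, an antiviral exonuclease gene, lay at −0.23 on the Th1 and Th0 array and at 1.63 on the other, a difference of 1.87. Usp18, which removes the ubiquitin-like protein ISG15, lay at −1.33 and 0.28, a difference of 1.61. Ifit1 and Ifit3, which block translation of viral RNA or assist in it, differed by 1.56 and 1.52. Of the guanylate-binding proteins, which interferon gamma strongly induces, Gbp2 lay at −1.49 and 0.01 and Gbp3 differed by 1.39. For Usp18, Ifit3 and Gbp2 the Th17 and Th0 array lay within 0.3 of 0, and the difference came from the Th1 and Th0 array. Isg15, Igtp and Mx1 differed by 1.25, 1.20 and 1.20. The factor genes Irf8, at 2.34 and 2.30, Irf9 and Irf7 differed by −0.04, −0.05 and 0.37. Ifi204, a DNA sensor gene of an interferon-inducible family that was outside the list, lay at −2.03 and 1.43, a difference of 3.46.

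The promoters of Ifit1, Ifit3 and Isg15 are shown as 3 examples from the positive side of this list, whose genes have a known shared element. Gbp2, Gbp3 and Igtp, also at least 2-fold positive, hold the motif as well and are not shown. The motif searched was the core of the interferon-stimulated response element, GAAA then any 2 bases then GAAA, on both strands and with overlapping matches counted. In the 250 bases before the gene start it stood in 15 of 28 measured list members with a window (53.6%) and in 3.46% of all 27025 genes. It stood in 6 of the 7 members at least 2-fold positive that had a window, Isg20 being the one without it, and in 9 of 21 others. Usp18 and Mx1, also positive, had no window. The list holds genes of a kind known to carry this element, so a share above that of all genes was likely from its choice. The split by side was not tested, and a match shows no binding. The windows are chr19:34640639-34640888 on the plus strand for Ifit1, chr19:34583279-34583528 on the plus strand for Ifit3 and chr4:156200819-156201068 on the minus strand for Isg15, all from RefSeq GRCm38.p6. Matches are in capitals. There were 2 in Ifit1, starting 104 and 85 bases before the gene start, 2 in Ifit3, starting 156 and 122 bases before it, and 3 overlapping ones in Isg15, starting 78 to 66 bases before it.
Ifit1: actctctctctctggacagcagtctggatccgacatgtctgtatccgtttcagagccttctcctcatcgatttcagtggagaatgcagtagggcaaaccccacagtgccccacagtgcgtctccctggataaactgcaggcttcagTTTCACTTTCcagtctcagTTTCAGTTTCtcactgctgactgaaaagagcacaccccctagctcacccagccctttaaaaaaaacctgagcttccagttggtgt
Ifit3: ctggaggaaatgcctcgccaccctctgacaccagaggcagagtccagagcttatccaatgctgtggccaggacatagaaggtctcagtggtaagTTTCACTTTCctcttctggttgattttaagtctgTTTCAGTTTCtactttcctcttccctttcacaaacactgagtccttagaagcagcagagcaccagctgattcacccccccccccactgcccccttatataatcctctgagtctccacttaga
Isg15: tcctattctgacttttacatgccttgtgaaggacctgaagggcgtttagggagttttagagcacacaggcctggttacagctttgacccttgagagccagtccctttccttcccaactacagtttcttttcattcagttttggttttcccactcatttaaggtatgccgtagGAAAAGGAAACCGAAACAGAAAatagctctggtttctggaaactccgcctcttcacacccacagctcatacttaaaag

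A further list of cytokine genes had members on both sides. It shares Lta and Tnf with the Th1 programme and Il10, Tgfb1 and Ebi3 with the regulatory T cell genes. Of its 25 measured members, 5 were at least 2-fold negative and 3 positive, beside 3.61% and 4.53% of all genes. The positive ones were growth factors of myeloid cells and Il10. Csf2, the gene of GM-CSF, lay at −2.97 on the Th1 and Th0 array and at −0.06 on the other, a difference of 2.91 (7.53-fold). Csf1, the gene of M-CSF, lay at −2.42 and 0.45, a difference of 2.86 (SD 0.56 over 2 probes). Il10 lay at −2.35 and −0.36. On the negative side Il2, the T cell growth factor, lay at −0.59 and −2.50, a difference of −1.91. Tnfsf11, the gene of RANKL, which drives osteoclasts, lay at 1.07 and −1.17, a difference of −2.25. The inflammatory cytokine genes Il1b, Il1a and Il6, which T cells seldom make, differed by −2.62, −1.65 and −1.53, and the 2 probes of Il1a were far apart (SD 1.74).

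Of 29 cytokine receptors, 6 were at least 2-fold negative and 4 positive, beside 3.61% and 4.53% of all genes. The positive ones were the chains for interleukins 12 and 18. Ifngr2, the signalling chain of the interferon gamma receptor, differed by −1.35 and its partner Ifngr1, which binds the cytokine, by 0.91. The other negative receptors were Csf2ra and Csf2rb2, of the receptors for GM-CSF and interleukin 3, at −1.35 and −1.32, Il1r1, the decoy receptor Il1r2 at −1.10 and Il10rb at −1.09. The last 2 fell within 2-fold when arrays were centred on control genes. Il2ra and Il2rb, chains of the interleukin 2 receptor, lay at 0.20 and 0.74. The median over the list was −0.11, which turned positive when arrays were centred on control genes.

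Among 19 chemokine genes, 7 were at least 2-fold negative and 2 positive, beside 3.61% and 4.53% of all genes. Cxcl3 and Cxcl2, which attract neutrophils, differed by −3.04 and −2.53, and Ccl9, Ccl6 and Ccl17, mostly myeloid products, by −2.35, −1.88 and −1.54. The positive ones were the monocyte attractants Ccl2, at 0.95 and 4.06 with a difference of 3.12 (8.68-fold), and Ccl7 at 2.47. Of 18 receptors for chemokines and homing signals, 4 were positive and 2 negative. Ccr2, the receptor for Ccl2 and Ccl7, lay on the same side as both ligands, at 2.22, with Cxcr3, Cxcr6 at 1.77 and Gpr183 at 1.35. Cxcr4, which retains cells in bone marrow, differed by −1.51 and Ccr7, which leads cells into lymph nodes, by −1.05, within 2-fold when arrays were centred on control genes. Ccr6 was the receptor for the most distant chemokine of all, Ccl20, and was within 2-fold.

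The markers of mast cells, basophils and eosinophils, the myeloid markers and the class II genes had the most negative medians of the 31 lists. These lists were chosen with earlier results of these data known and share some members, so their order is a description only. Of 16 measured markers of mast cells, basophils and eosinophils 10 were at least 2-fold negative and 0 positive, with a median of −1.62. Over all genes those shares were 3.61% and 4.53%. On the Th1 and Th0 array, 16 of 16 lay above 0, from 0.87 to 3.88, and on the Th17 and Th0 array they ran from −0.13 to 2.70. The eosinophil ribonuclease genes Rnase2a, Ear3 and Ear10 differed by −3.62, −3.16 and −3.04. These are near-identical genes, and a probe may have bound RNA of several. The basophil and mast cell genes Ms4a2 and Fcer1a, chains of the IgE receptor, differed by −2.35 and −2.06, and the proteases Mcpt8 and Prss34 by −1.95 and −1.92. Not all followed: Prg2 and Epx, granule proteins of eosinophils, lay at 0.63 and 0.94, and Hdc and Kit at 0.33 and −0.12. When arrays were centred on control genes the counts became 9 negative and 1 positive.

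Of 17 measured myeloid markers, 9 were at least 2-fold negative and 0 positive, beside 3.61% and 4.53% of all genes. The median of the markers was −1.21. They ran from 0.03 to 3.54 on the Th1 and Th0 array and from −2.04 to 2.14 on the Th17 and Th0 array. Cd14, a receptor for bacterial lipopolysaccharide, lay at 0.84 and −2.04, a difference of −2.88, and Cybb, a subunit of the phagocyte oxidase, at 1.80 and −1.07, a difference of −2.87. Apoe differed by −3.16, but its value on the Th1 and Th0 array matched a weak channel. Fcer1g and Tyrobp, adaptors of myeloid receptors, differed by −1.92 and −1.43. The complement genes C1qb and C1qc and the neutrophil gene S100a9 lay between 1.44 and 2.14 on both arrays and differed by 0.02, 0.22 and 0.16, so the markers did not move as 1 block. Class II antigen presentation genes, used by macrophages, dendritic cells and B cells, had 5 of 10 members negative, 0 positive and a median of −0.96. Cd74 differed by −1.30 and H2-Ab1 by −1.05, and when arrays were centred on control genes 2 members remained past 2-fold.

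**Figure D3:**
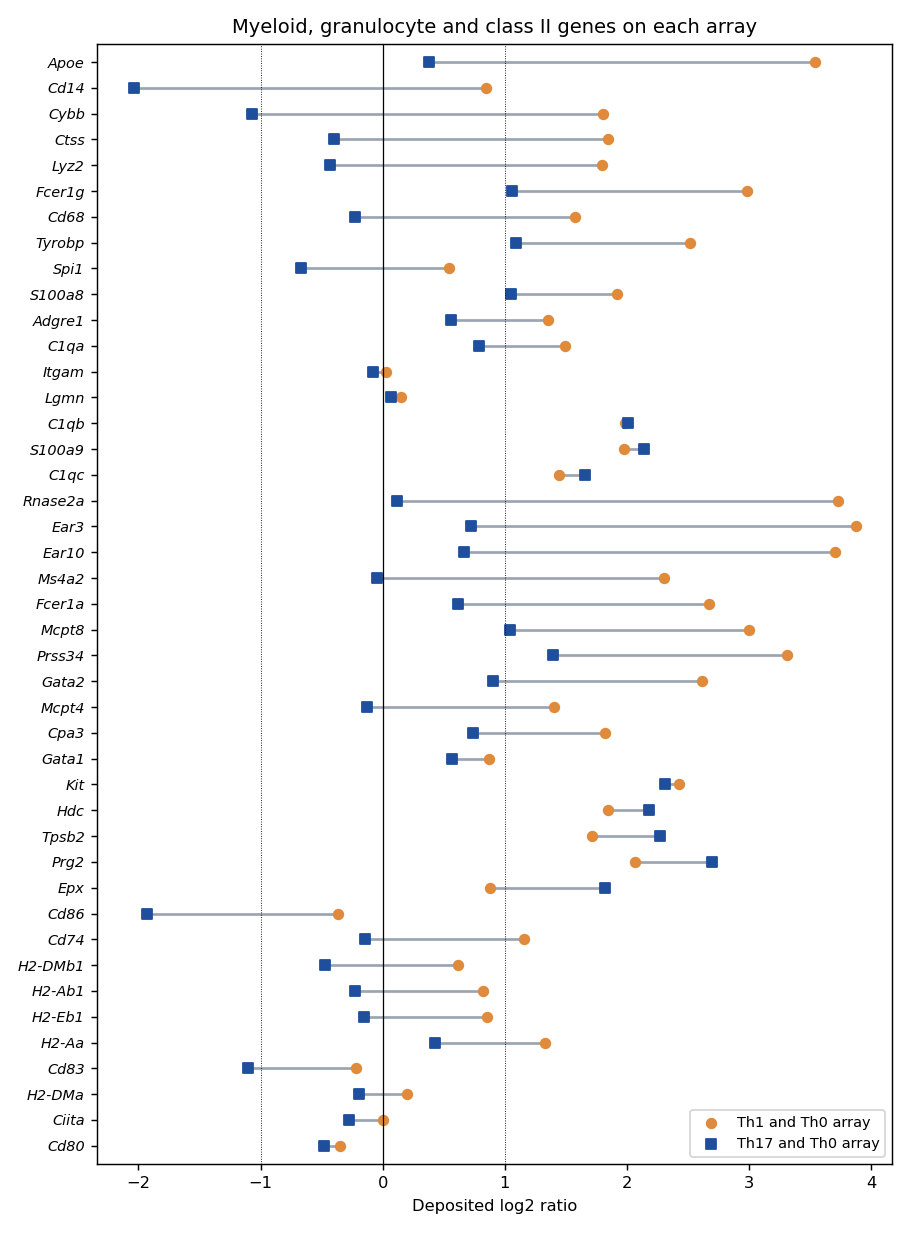
Deposited log2 ratios of 17 myeloid markers (top), 16 markers of mast cells, basophils and eosinophils (middle) and 10 class II antigen presentation genes (bottom) on the Th1 and Th0 array (circles) and the Th17 and Th0 array (squares). Circles lie right of squares for most genes, while C1qb, S100a9, C1qc, Hdc, Tpsb2, Prg2 and Epx show the reverse order.

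These markers lay on the same side as Il17a, Ccl20, Cxcl3, Il1b and Tnfsf11, and the part of other cells in those differences was not tested. On the Th1 and Th0 array Il17a lay at 0.29, Ccl20 at −0.67, Cxcl3 at −0.72, Il1b at 0.61 and Tnfsf11 at 1.07. The median of the mast cell, basophil and eosinophil markers was 2.37 there and that of the myeloid markers 1.80. Their medians on the array of Th17 RNA were 0.82 and 0.38. Markers of B cells had 0 of 9 members past 2-fold, beside 8.14% of all genes, and a median of 0.08. So short a list can hold 0 such members at that share. Of 9 markers of CD8 T cells and NK cells 3 were positive and 0 negative, namely Klra3 at 1.72, Klrg1 at 1.17 with a value that matched a weak channel, and Klrd1 at 1.08, while Cd8a lay at 0.16 and Ncr1 at −0.58. Of 5 red cell markers the globin gene Hbb-b1 was 2-fold positive, at 1.33.

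**Figure D4:**
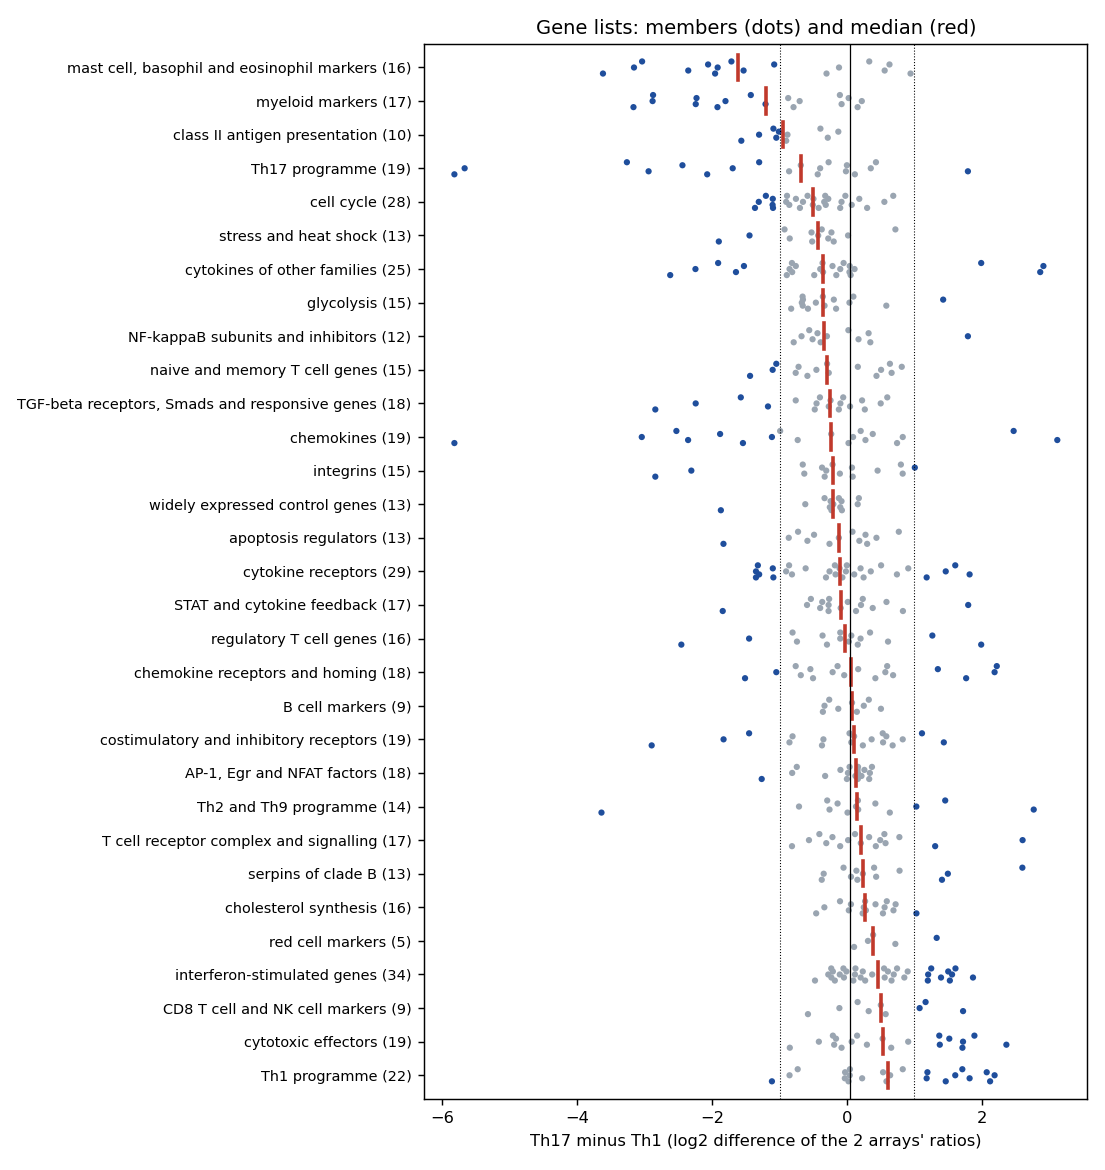
Th17 minus Th1 differences (log2, x axis) of the measured members of 31 gene lists, with the number of members in brackets, ordered by median. Some genes stand in several lists. Red bars are list medians, blue dots are members at least 2-fold apart, dotted lines mark 2-fold and the solid line marks the median of all genes. Markers of mast cells, basophils and eosinophils are at the top at −1.62 and the Th1 programme at the bottom at 0.61.

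Genes of the T cell receptor and its signalling, which define T cells, had 2 of 17 measured members at least 2-fold positive and 0 negative. Over all genes those shares were 4.53% and 3.61%. The list median was 0.20. Cd3e, Cd3g and Cd3d, chains of the receptor complex, lay at 0.57, 0.49 and 0.43 and Cd4 at −0.10. The positive members were Trat1, an adaptor that stabilises the receptor, and the costimulatory receptor Cd28. Trat1 lay at −1.22 on the Th1 and Th0 array and at 1.38 on the other, a difference of 2.60 (SD 0.56 over 3 probes), and Cd28 lay at −1.39 and −0.09, a difference of 1.31.

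Costimulatory and inhibitory receptors had 3 of 19 members at least 2-fold negative and 2 positive, beside 3.61% and 4.53% of all genes. Cd200, the ligand of an inhibitory receptor on myeloid cells, lay at −0.22 and −3.11, a difference of −2.89 (7.44-fold). Lag3, an inhibitory receptor that binds class II molecules, lay at 0.75 and −1.08, a difference of −1.83, and Ctla4 was the third. Cd226 at 1.44 and Icos at 1.11, both costimulatory, were on the positive side, and Pdcd1, the gene of PD-1, lay at 0.83. Genes of naive and memory T cells had 3 of 15 members negative and 0 positive, Igfbp4 at −1.44, Dapl1 at −1.10 and Ccr7. The last 2 fell within 2-fold when arrays were centred on control genes. Il7r and Satb1 lay at 0.51 and 0.81 and Lef1 at 0.44.

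Members past 2-fold in the signalling, transcription factor, apoptosis and integrin lists are named here, beside 8.14% of all genes. Of 17 genes of STAT signalling and its feedback, Socs2, an inhibitor induced through STAT5, differed by −1.84 and the kinase Pim2 by 1.80, while Socs3 lay at −1.26 and −1.54 and differed by −0.27. Of 18 AP-1, Egr and NFAT genes, Egr2 alone was past 2-fold, at −1.26, and it was within 2-fold when arrays were centred on control genes. Among 12 NF-κB genes Nfkbiz alone was, with Nfkb2 at −0.67, Relb at −0.51 and Tnfaip3 at −0.56. Of 13 apoptosis regulators, Bcl2a1a, a survival gene with near-identical copies, differed by −1.83 and Fas, the receptor of Fasl, by −0.86. Of 15 integrins, Itgax, the CD11c chain of myeloid cells, lay at −2.31 beside Itgae, and Itgb3 at 1.01, within 2-fold when arrays were centred on their medians.

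Cell cycle genes leaned to the negative side, with 6 of 28 measured members at least 2-fold there and 0 on the positive side. Over all genes those shares were 3.61% and 4.53%. The list median was −0.50. Bub1b and Bub1, of the spindle checkpoint, differed by −1.36 and −1.10, Ccna2, the cyclin of S phase, by −1.31, Mcm3 and Mcm6, of the replicative helicase, by −1.20 and −1.10, and Top2a by −1.10. Ccna2 lay at 0.72 on the Th1 and Th0 array and at −0.59 on the other. Mki67, the Ki-67 antigen gene, lay the other way, at 0.69, as did the cell cycle inhibitor Cdkn1b at 0.55. The group depends on the zero point, since 2 members were past 2-fold when arrays were centred on control genes, with a median of −0.23.

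The metabolic and stress lists had 1 or 2 members each past 2-fold, again beside 8.14% of all genes. Of 15 glycolysis genes 11 lay below 0, with a median of −0.36 that became −0.08 when arrays were centred on control genes. Ldha, which makes lactate, lay at −0.83 and Gapdh at −0.46 (SD 0.15 over 30 probes). The glucose transporter genes lay apart, Slc2a1 at −0.58 and Slc2a3 at 1.43. Of 16 cholesterol synthesis genes 13 lay above 0, with a median of 0.27, and Hmgcs1 at 1.03 was the 1 member past 2-fold. It was within 2-fold when arrays were centred on their medians. Of 13 stress and heat shock genes 2 were negative, Hmox1, which degrades heme, at −1.44 and Xbp1, a factor of secretory cells, at −1.90, the latter with a value that matched a weak channel. The 13 measured control genes had a median of −0.20, and Tfrc, the transferrin receptor of dividing cells, stood apart from the rest at −1.87.

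Of the 16208 genes with no probe that matched a weak channel, 7.01% differed 2-fold or more, with 3.22% negative and 3.79% positive. Clone names and genes with probes of both signs were then left out. The 15 lowest of the rest held Ccl20, Il17a and Il9, known as T cell genes, and several genes known from macrophages and granulocytes, and the cells that made these transcripts here were not determined. Arg1, which consumes arginine in macrophages, lay at 2.27 on the Th1 and Th0 array and at −1.65 on the other, a difference of −3.91. Lyz1, a lysozyme gene with a close copy in Lyz2, differed by −3.84 (SD 0.51 over 2 probes). Cd302, a C-type lectin receptor, differed by −3.97, the ribonuclease gene Rnase6 by −3.97, the complement gene Cfb by −3.40 and the lysosomal amidase Naaa by −3.29. Gdf6 at −4.67 and Foxf2 at −3.77, genes of skeletal and mesenchymal development, Olfr1317, Wfdc21 and Spatc1l were also among them, with Rnase2a.

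The 15 highest genes, with the same genes left out, were led by Hopx, a homeodomain-only cofactor known from effector T cells. It lay at −0.97 on the Th1 and Th0 array and at 3.31 on the other, a difference of 4.28 (19.4-fold). The membrane protein genes Ms4a4c and Ms4a4b lay at 4.17 and 3.82, and are close copies. Ly6c1, a surface marker of effector T cells and monocytes, lay at −0.16 and 3.22, a difference of 3.37. Esm1 at 3.53, Ifi204, Ccl2 and the drug efflux pump gene Abcb1a at 3.02 followed, together with Olfr1462, Arvcf, Jakmip2, Defb39, Hand2, Lingo2 and Utp14b. Of these last genes, all but Defb39 and Lingo2 lay between −4.04 and −2.57 on the Th1 and Th0 array. On the other array they lay between −0.06 and 0.39, and Defb39 and Lingo2 at 1.07 and 2.02. Only weak channels of at most 5 units were searched, so a gene kept in either group of 15 can still have had faint signal.

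Genes with very large differences often had a probe whose value could come from very little signal. On each array the most repeated value marks probes with equal signals, and other values lay at log2 ratios of small whole numbers from it. A probe was taken as low in signal when its value on either array matched a weaker channel of 1 to 5 units. A brighter probe can match by chance, so a match marks a gene as doubtful and does not prove that its signal was weak. Of 52 genes with a positive difference of at least 3, 37 (71.2%) had such a probe, against 20 of 42 (47.6%) on the negative side and 1004 of 16076 (6.25%) of the genes within 2-fold. Without regard to signal, the 5 highest genes were Olfr820 at 6.18, Prl5a1 at 6.15, Obox2 at 5.64, Vtcn1 at 5.28 and Kbtbd12 at 5.15, each with a weak channel of 1 to 4 units on the Th1 and Th0 array. Of the 5 lowest, Ngdn at −5.75, Olfr938 at −5.19 and Trim6 at −5.16 matched a weaker channel of 1 unit on both arrays, and Ccl20 and Il17a did not match.

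**Figure D5:**
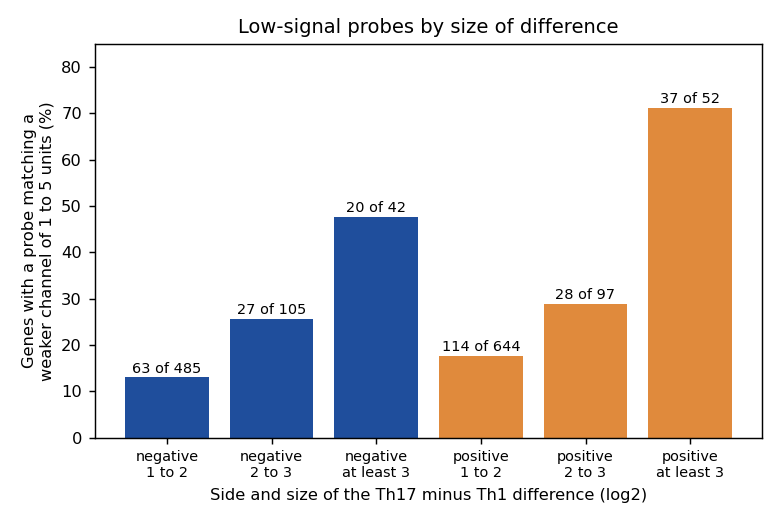
Share of genes (%, y axis) that have a probe matching a weaker channel of 1 to 5 signal units, by side and size of the Th17 minus Th1 difference (x axis), with counts above the bars. The share is higher in each larger class of difference on both sides and reaches 71.2% for positive differences of at least 3.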

How the data were processed

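RNA of Th1-polarized, Th17-polarized and Th0 lymphocytes was measured on 2 two-colour arrays, from 500 ng of total RNA per the labels. The authors deposited 1 value for each of 36547 probes and array, with 0 missing, taken here as log2 ratios from the values themselves: repeated values lay at log2 ratios of small whole numbers from the most repeated value of an array (−0.8485 for Th1 and Th0, −0.4263 for Th17 and Th0). The sources used here name no scanner software, background correction, normalisation or numerator. Those steps settle the scale. The columns' medians were −0.11 and −0.04, and centring and direction stay unknown.

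Platform annotation gave 26926 probes 1 gene, 203 several and left 9418 unnamed. Gene numbers were matched to GRCm38.p6 RefSeq names for 26774 of the first and not for 152. Probes were averaged per gene, which gave 17501 genes, 11615 with 1 probe, and the Th1 array was subtracted from the Th17 array (Python 3.11.15, pandas 2.3.3). With 1 array a side no p-value was computed, and a gene was counted at an absolute log2 difference of at least 1. A weaker channel of 1 or 2 units was matched within 0.0006 and one of 3 to 5 units within 0.0003 on the log2 scale, tolerances set after the values were seen. The scripts were run on simulated arrays that shared their noise, which checked the calculations and not the precision of a difference. Promoters came from RefSeq.

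Members and lists were chosen with earlier results of these data known. Named genes were the 15 highest and 15 lowest without clone names, probes of both signs or weak-channel probes, the 5 highest and lowest with the latter, the 5 markers, up to 6 genes of each list with the largest difference, and defining genes of a list. Further list members within 2-fold were chosen for description after their values were seen.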

Additional observations from a re-analysis of the deposited data

Results flagged for a closer look

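Of all genes, 32 lay at least 2-fold from 0 on both arrays in opposite directions, 18 with a negative and 14 with a positive difference, and 8 of them had a low-signal probe. Among the named genes 19 did so. Each array is 1 sample, so the difference between the 2 effects was not tested. The positive ones were Ms4a4b at 3.82, Ifi204 at 3.46, Defb39 at 3.21, Abcb1a at 3.02, Gata3 at 2.77 and Trat1 at 2.60. The negative ones from the cytokine and chemokine lists were Cxcl2 at −2.53 and Tnfsf11 at −2.25. Genes known from macrophages or granulocytes were Cd302 at −3.97, Rnase6 at −3.97, Arg1 at −3.91, Cfb at −3.40, Naaa at −3.29 and Cybb at −2.87. The remaining negative ones were Olfr1317 at −3.83, Wfdc21 at −3.59 and Spatc1l at −3.43, and Ngdn at −5.75 and Olfr938 at −5.19, whose values matched a weak channel on both arrays.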

How the results depend on the processing

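Each of 5 alternatives was applied to the counts, 31 list medians and 210 named genes. No paired analysis was possible because each group has 1 array and no test was made. Centring on control genes gave 404 negative and 1376 positive genes. Scaling both arrays to one median absolute deviation moved Il17a to −6.21 and Ccl20 to −6.55, and 13 other named genes by over 0.52, the spread between probes. The median over probes moved Lyz2, whose 4 probes disagreed, to −3.23. No named gene past 2-fold changed side under the 5 alternatives. List medians near 0 did: with control genes as the centre 8 turned from negative to positive, those of regulatory T cell genes, TGF-beta, cytokine receptors, chemokines, integrins, STAT, apoptosis and the control genes. That of chemokine receptors turned negative under median centring and scaling, and that of costimulatory receptors under scaling. Medians of the Th17, Th1, cytotoxic, interferon, cell cycle, myeloid, granulocyte and class II lists kept their sign under all 5. Leaving out probes matching a weak channel left 545 negative and 633 positive genes, of which 530 and 621 had been counted with all probes, and 14 named genes had no value left.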

Other observations

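Probes without a gene name here were not part of the comparison. Of the 9418, 679 lay at least 2-fold on the positive and 267 on the negative side, whereas of the 26926 probes with 1 gene 1247 did so on the positive and 1012 on the negative side. A low-signal match was found for 7.14% of the unnamed and 4.93% of the named probes.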
